A study of Mus musculus with 33 samples.

Results

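The first 5 days of a cone-directed culture of mouse retinal progenitor cells were described by comparing 3 libraries of cone primed cells at day 0 with 3 libraries of cone induced cells at day 5. These 6 libraries were chosen by their labels, from 33 libraries in the series. All 6 came from C57BL/6J retina at embryonic day 14, labelled as retinal progenitor cells, and both groups carry the same treatment label, cone induction with COCO protein. COCO is a secreted antagonist of BMP, TGF-beta and Wnt signals. For comparison, 3 rod primed libraries at day 0 and 3 rod induced libraries at day 5 were used, from the same strain and embryonic stage and labelled as treated with taurine and retinoic acid. Another 3 libraries, of untreated cells at day 0 from embryonic day 14, served as another control. Libraries of both cultures at days 12, 21 and 35 entered the model, and some of their means are given. The labels say neither how long each factor was present nor whether replicates came from separate cultures or litters. The p-values therefore measure a spread between replicate libraries, which may be technical. That spread was estimated over all 33 libraries (common coefficient of variation 0.213, against 0.15 in the 6 compared), later days included.

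Retinal progenitors divide and give rise to all retinal neurons and to Muller glia in an overlapping order, with ganglion cells and cones among the early types and most rods, bipolar cells and glia among the late ones. Photoreceptor precursors share the transcription factors Otx2 and Crx. Nrl and its target Nr2e3 direct such precursors to the rod fate and repress cone genes, while Thrb and Rxrg mark cones. Notch signalling, read out by Hes genes, keeps progenitors undifferentiated and favours glia later.

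Reads in genes numbered 7543927 to 11717236 in the cone primed libraries and 12351009 to 14032694 at day 5. Nuclear genes annotated as or over ribosomal RNA took 13.9% to 19.3% of gene counts at day 0 and 8.16% to 9.34% at day 5, and reads in no feature made up 20.6% to 24.3% and 25.4% to 31.9% of all counted reads. Whether these shifts had a part in the differences below was not tested. In a principal component analysis of the 6 libraries, component 1 held 63.3% of the variance and separated the days. Component 2 held 12.3% and set cone primed replicate 2 (score -42.2) apart from replicates 1 and 3 (24.2 and 21.5). In that library the 20 genes of the ganglion cell list summed to 1430 CPM (counts scaled to library size), against 617 and 721 in the other cone primed libraries, and the 24 genes shared by rods and cones summed to 620 CPM, against 1473 and 1386. Results that rest on it are given with and without it. Levels below are CPM scaled by edgeR, and differences are log2 fold changes with their standard errors (SE) from a model of all 33 libraries.

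Of 18150 genes tested, 4056 (22.3%) differed between day 5 and day 0 at an adjusted p under 0.05. At day 5, 2206 (12.2%) were higher and 1850 (10.2%) were lower, and with a change of at least 2-fold required as well, 1673 were left (9.22%), of which 1305 rose (7.19%) and 368 fell (2.03%). The libraries of the groups did not overlap for 8084 genes (44.5%), and the median log2 change was 0.05. Without cone primed replicate 2, 2419 genes were called, of which 1372 were higher and 1047 lower. On the TPM values that the authors also deposited, 1682 genes were higher and 31 lower. In those tables a single ribosomal gene, AY036118, took 64.4% to 69.3% of TPM at day 0 and 53.1% to 56.9% at day 5, and the median change of all genes was 0.80. Directions on that scale are given below beside this shift. It called fewer members of several lists, such as 3 rod phototransduction genes, 2 TGF-beta targets, 6 Muller glia genes, 0 astrocyte genes, 6 glycolysis genes and 4 hypoxia targets, all higher. Between cone primed and untreated day 0 cells edgeR called 0 genes, and 200 (1.1%) had an unadjusted p under 0.05. Without any difference a share near 0.05 would be reached, so the test was cautious here. The 0 calls therefore do not show that these cells were alike. With untreated cells as the day 0 control 4188 genes differed from day 5. The changes of 20 gene lists are drawn in the plot of log2 fold changes by list. Counts of list members below stand beside the shares of all genes tested, 12.2% higher and 10.2% lower.

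**Figure D1:**
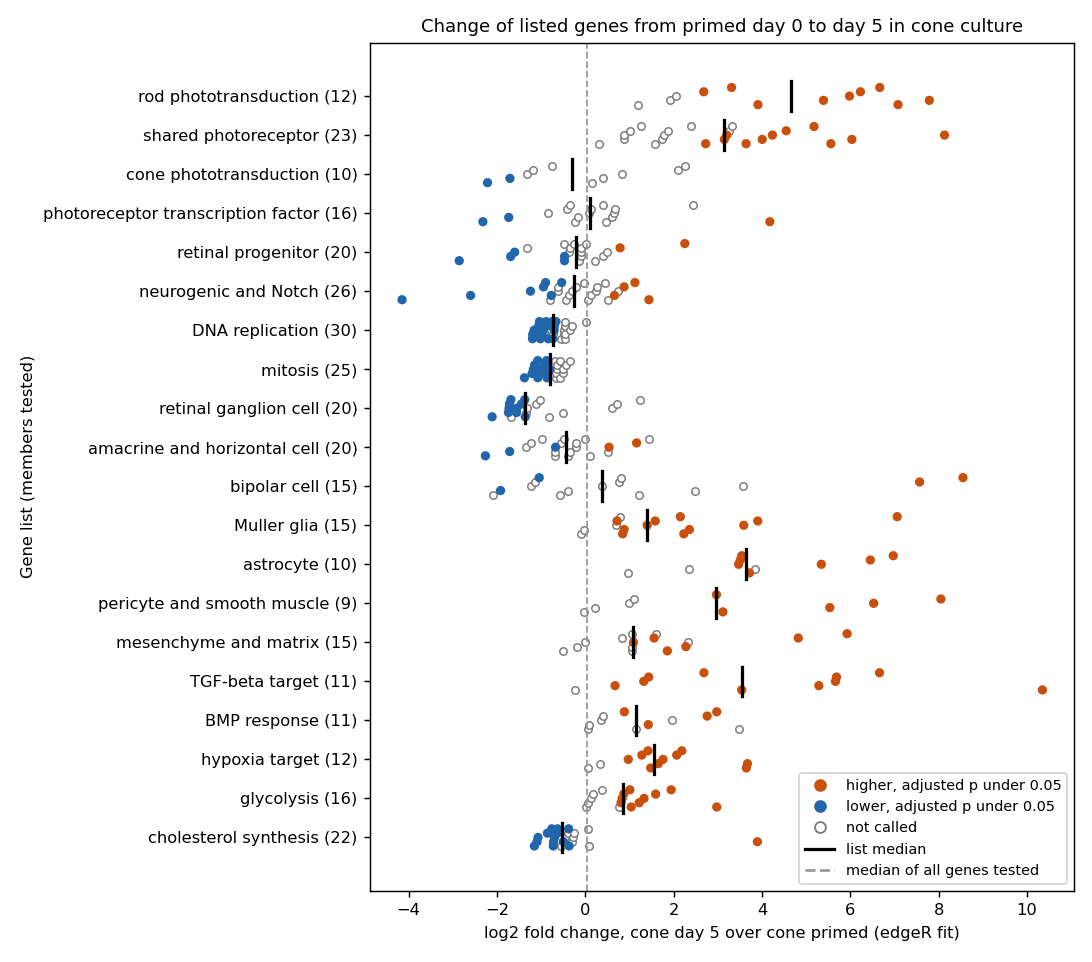
Log2 fold change of each tested member of 20 gene lists between cone primed day 0 and cone day 5, from the edgeR fit; filled points passed an adjusted p of 0.05, black bars are list medians and the dashed line is the median of all genes tested (0.05). Rod phototransduction genes (median 4.65) and TGF-beta targets (median 3.54) lie to the right, and replication (median -0.74), mitosis (median -0.81) and ganglion cell genes (median -1.37) lie to the left.

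Most rod phototransduction genes rose. Of 12 list members tested, 9 were higher at day 5 and 0 lower, with a median log2 change of 4.65. In bulk RNA, fewer cells of a type and less RNA per cell cannot be told apart, here and in the results that follow.

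Gnat1, the rod transducin alpha subunit, was at 0.378, 0.0808 and 0.105 CPM in the 3 cone primed libraries (5 reads in all) and at 10.2, 54.5 and 7.73 CPM at day 5 (1183 reads). Cnga1, the alpha subunit of the rod cyclic nucleotide-gated channel, was at 0.126, 0 and 0.314 CPM and then at 16.4, 66.9 and 12.8 CPM. Both were highest in day 5 replicate 2 and did not overlap between the groups, with log2 changes of 7.08 ± 1.71 (SE, adjusted p = 0.00373, and 0.0916 with voom and quality weights) and 7.79 ± 1.76 (adjusted p = 0.00227). Grk1, a kinase that helps to end the light response, went from 1.64, 1.05 and 4.30 CPM to 173, 233 and 110 CPM, a log2 change of 6.23 ± 1.30 (adjusted p = 0.00116). Pde6b, the beta subunit of the rod phosphodiesterase, went from 7.55, 0.0808 and 2.31 CPM to 161, 303 and 111 CPM, a log2 change of 5.98 ± 1.50 (adjusted p = 0.00518). These 4 genes kept their calls when any 1 of the 6 libraries was left out.

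Sag, rod arrestin, was already at 73.4, 15.2 and 46.8 CPM at day 0 and reached 418, 645 and 271 CPM, a log2 change of 3.31 ± 1.13 (adjusted p = 0.0357). Its call was lost without any 1 of the cone primed libraries or without day 5 replicate 1 or 2 (adjusted p from 0.0501 to 0.150). Cngb1, the beta subunit of the rod channel, rose by 3.91 ± 1.12 (adjusted p = 0.0132), and without cone primed replicate 2 its adjusted p was 0.0789. Without that library, 6 of the 12 rod genes were called, all higher, with a median of 4.30.

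Genes that both photoreceptor types use rose as well: 11 of 23 tested were higher and 0 lower, with a median of 3.15. Recoverin (Rcvrn), a calcium sensor of the light response, rose from 0.378, 0.0808 and 0.943 CPM to 15.4, 39.3 and 9.36 CPM, a log2 change of 5.56 ± 1.14 (adjusted p = 0.000991). The groups were far apart and day 5 replicate 2 was again the highest.

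Cabp4, a calcium-binding protein of the photoreceptor synapse, gave 2 reads at day 0 and 246 at day 5, a ratio of 75.5 with an exact 95% interval of 20.7 to 627 that covers counting error only. Prph2, peripherin of the outer segment rim, rose by 5.18 ± 1.44 (adjusted p = 0.0106), and by 4.52 with an adjusted p of 0.0616 without cone primed replicate 2. Samd7, a Polycomb-linked repressor of photoreceptors, rose from 16.1, 3.72 and 22.5 CPM to 230, 316 and 240 CPM, a log2 change of 4.24 ± 0.90 (adjusted p = 0.00129). Rbp3, the retinoid carrier of the photoreceptor matrix, was at 230, 82.1 and 170 CPM and then at 960, 942 and 623 CPM. Its groups did not overlap, but its adjusted p was 0.0916. Fewer members of this list were called, 7 and 7, without day 5 replicate 2 or cone primed replicate 3, and 6 without cone primed replicate 2.

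Cone phototransduction genes moved differently from one another, and none passed the test as higher. Of 10 tested, 0 were higher and 2 lower (20.0% called, against 22.3% of all genes tested), with a median of -0.30. Each leave-one-out fit except that without cone primed replicate 2 called 1 of them, or 0 without day 5 replicate 2, and on the TPM scale 2 were called higher. Opn1sw, the short-wave cone opsin, was at 5.03, 0.566 and 1.89 CPM at day 0 and at 18.7, 5.96 and 9.76 CPM at day 5. The groups did not overlap, and the log2 difference of 2.24 ± 0.89 missed the threshold (adjusted p = 0.0706). Without cone primed replicate 1 it passed (3.29, adjusted p = 0.0344). Arr3, cone arrestin, was at 2.14, 0.404 and 1.57 CPM and then at 1.87, 2.61 and 2.67 CPM, with overlapping groups (adjusted p = 0.400).

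Gnat2, the cone transducin alpha subunit, fell from 30.7, 18.3 and 30.0 CPM to 10.2, 7.17 and 6.80 CPM, a log2 change of -1.71 ± 0.50 (adjusted p = 0.0158). Cnga3, the cone channel alpha subunit, fell from 6.80, 2.10 and 4.19 CPM to 0.869, 0.790 and 1.10 CPM, a log2 change of -2.21 ± 0.63 (adjusted p = 0.0127). Neither gene overlapped between the groups. The Gnat2 call was lost without cone primed replicate 1 or 3 or day 5 replicate 2 or 3 (adjusted p from 0.0526 to 0.0733), and the Cnga3 call without cone primed replicate 1 or day 5 replicate 1 or 2 (adjusted p from 0.0520 to 0.0828). Pde6c, the cone phosphodiesterase, was at 27.4, 14.6 and 27.2 CPM and then at 12.9, 11.2 and 6.34 CPM (adjusted p = 0.101). The medium-wave opsin Opn1mw had 0 reads in all 6 libraries, and a floor of 3 reads corresponds to 0.174 to 0.378 CPM in them.

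Among 16 photoreceptor transcription factors, 1 was called higher and 2 lower (18.8% called, against 22.3% of all genes tested), with a median of 0.11. Without day 5 replicate 2, 1 in all was called, and on the TPM scale 5 were called higher. The rod factor Nr2e3 was at 25.6, 0.243 and 10.2 CPM at day 0 and at 187, 261 and 180 CPM at day 5. The 3 primed libraries were far apart, with replicate 2 the lowest, and the groups did not overlap. The log2 change was 4.18 ± 1.41 (adjusted p = 0.0342), and the call was lost without cone primed replicate 2 or 3 or any 1 day 5 library (adjusted p from 0.0517 to 0.134). Nrl, which lies upstream of Nr2e3, was at 35.9, 6.14 and 29.9 CPM and then at 120, 150 and 113 CPM, a log2 difference of 2.43 ± 1.02 that missed the threshold (adjusted p = 0.0871).

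Otx2 (316, 158 and 226 CPM, then 302, 307 and 321 CPM; adjusted p = 0.543) and Crx (513, 340 and 541 CPM, then 577, 698 and 638 CPM; adjusted p = 0.623) were present before and after, and neither passed the test. Thrb, a thyroid hormone receptor needed for medium-wave cones, was at 33.5, 51.9 and 65.1 CPM and then at 50.6, 64.4 and 44.4 CPM (adjusted p = 0.915). Rxrg, a retinoid receptor of cones, fell from 10.6, 13.5 and 15.0 CPM to 5.01, 2.37 and 4.36 CPM, a log2 change of -1.73 ± 0.46 (adjusted p = 0.00773, and 0.0600 without day 5 replicate 2). Sall3, a zinc finger factor of cones and horizontal cells, fell by 2.32 ± 0.42 on the log2 scale (adjusted p = 0.000258). Sox15, named in the title of the study, gave 13 reads at day 0 and 34 at day 5 in all (0.252, 0.566 and 0.419 CPM, then 0.334, 0.608 and 1.10 CPM), and a difference was not detectable at this depth (adjusted p = 0.529).

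**Figure D2:**
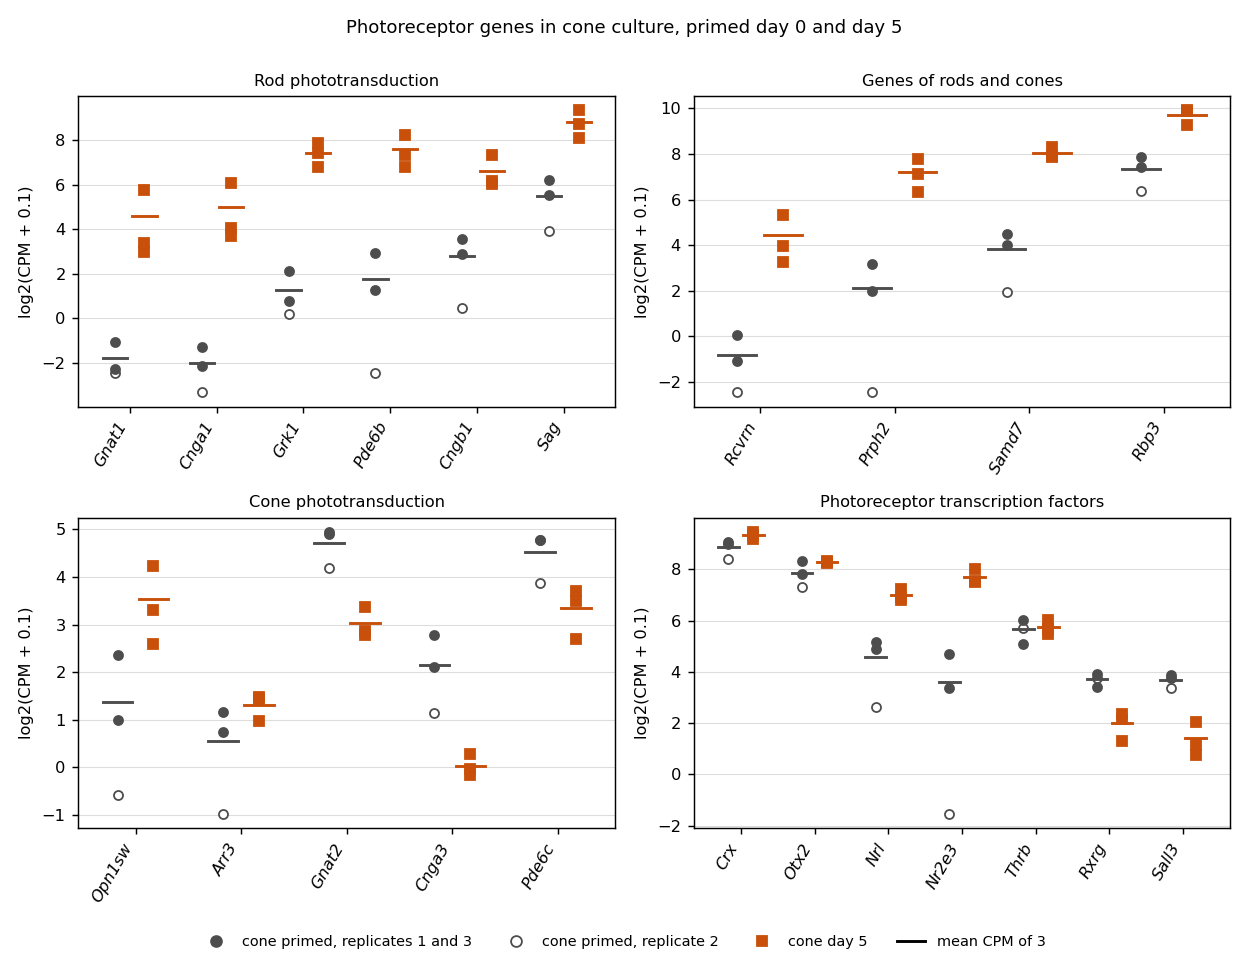
Levels of photoreceptor genes as log2(CPM + 0.1) in each of the 3 cone primed libraries (circles, replicate 2 open) and the 3 cone day 5 libraries (squares), with bars at the mean of 3. The day 5 libraries lie above all primed libraries for the 6 rod genes and the 4 shared genes, while Gnat2 and Cnga3 lie below, and the open circle is the lowest primed library for 20 of the 22 genes.

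The rod and shared genes were also read over the promoters that RefSeq gives them on GRCm38.p6, 250 bases before to 50 bases after each start. The letters GGATTA on either strand, the core bound by CRX and OTX2, were present for 4 of 7 rod genes with a promoter in the table (57.1%), 9 of 17 shared genes (52.9%) and 1 of 7 cone genes (14.3%), against 8.14% of 27025 genes. The cone gene with a match was Gnat2, which fell. Matches were also present in rod and shared genes that were not called, Rbp3 among them. The promoters of Cngb1 and Samd7, which rose, are shown as the 150 bases before the start, 5′ to 3′ along the gene, with GGATTA or its reverse complement TAATCC in capitals. A match is a description of these letters only.
Cngb1, chr8:95306586-95306735, minus strand: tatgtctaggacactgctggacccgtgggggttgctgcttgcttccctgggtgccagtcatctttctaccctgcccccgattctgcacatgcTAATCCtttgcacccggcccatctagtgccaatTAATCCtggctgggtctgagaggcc
Samd7, chr3:30746143-30746292, plus strand: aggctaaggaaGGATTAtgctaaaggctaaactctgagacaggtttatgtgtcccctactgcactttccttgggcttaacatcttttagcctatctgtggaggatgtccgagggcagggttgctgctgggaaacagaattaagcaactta

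Neurogenic and Notch genes moved both ways, and 13 of 20 progenitor genes did not pass the test. Of 20 progenitor genes, 2 were higher and 5 lower with a median of -0.21, and of 26 neurogenic and Notch genes, 4 were higher and 7 lower with a median of -0.26. Against 22.3% of all genes tested, 35.0% and 42.3% were called in these 2 lists. On the TPM scale the medians were 0.46 and 0.71, both below the shift of all genes. Pax6, an eye-field factor, was at 563, 532 and 547 CPM at day 0 and at 394, 393 and 398 CPM at day 5, a log2 change of -0.47 ± 0.14 (adjusted p = 0.0155). Its groups did not overlap, yet the call was lost without cone primed replicate 1 or 3 or any 1 day 5 library (adjusted p from 0.0608 to 0.0784). On the TPM scale the change of Pax6 was 0.90, above the shift of 0.80 in all genes. Without 1 of the day 5 libraries the progenitor list held 3, 3 or 4 called genes.

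Hes5, the main Notch effector of the retina, fell from 46.1, 54.2 and 43.8 CPM to 6.41, 6.81 and 10.5 CPM, a log2 change of -2.60 ± 0.34 (adjusted p = 5.74e-06). Atoh7, the proneural factor required for ganglion cells, fell from 7.68, 14.1 and 3.56 CPM to 0.334, 0.182 and 0.872 CPM, a log2 change of -4.15 ± 0.70 (adjusted p = 0.000527). Nrarp, a feedback inhibitor of Notch, fell from 33.9, 39.5 and 30.5 CPM to 16.0, 12.3 and 15.6 CPM, a log2 change of -1.24 ± 0.19 (adjusted p = 4.62e-05). The groups did not overlap for any of the 3 genes. Hes6, a Notch antagonist of committed precursors, fell by 0.95 ± 0.23 (adjusted p = 0.00406), and Sfrp2, a secreted Wnt modulator of progenitors, by 1.69 ± 0.34 (adjusted p = 0.000868). On the TPM scale Nrarp and Hes6 changed by 0.57 and 0.21, below the shift of 0.80 in all genes. Fgf15, a growth factor of progenitors, was at 1.76, 10.5 and 1.15 CPM and then at 0.935, 0.182 and 0.756 CPM. Its log2 change of -2.86 ± 0.88 (adjusted p = 0.0234) rested on cone primed replicate 2, without which it was -1.21 (adjusted p = 0.425), and the call was also lost without day 5 replicate 2 or 3 (adjusted p = 0.106 and 0.0634).

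Other Notch genes rose. Hes1, an effector that keeps progenitors and glia undifferentiated, went from 10.1, 11.9 and 6.39 CPM to 19.8, 13.8 and 15.6 CPM, a log2 change of 0.79 ± 0.22 (adjusted p = 0.0112, with 0.0770 without cone primed replicate 3 and 0.0549 without day 5 replicate 1). The ligand Jag1 rose by 1.44 ± 0.36 (adjusted p = 0.00462), and the receptors Notch3 by 1.12 ± 0.31 (adjusted p = 0.0112) and Notch2 by 0.66 ± 0.20 (adjusted p = 0.0177). The calls of Notch3 and Notch2 were lost without cone primed replicate 3 (adjusted p = 0.0685 and 0.0633). Neurod1, which acts in photoreceptor and amacrine precursors, was at 345, 235 and 335 CPM and then at 480, 552 and 484 CPM, with no overlap but an adjusted p of 0.396. Hmga2, a chromatin protein of early progenitors, rose from 1.13, 2.10 and 1.36 CPM to 7.62, 6.02 and 9.07 CPM, a log2 change of 2.25 ± 0.43 (adjusted p = 0.000518). Without cone primed replicate 3 the neurogenic and Notch list held 5 called genes in place of 11.

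Genes of DNA replication and mitosis were lower at day 5 on the count scale, but not on the TPM scale. Of 30 replication genes 17 fell and 0 rose (median -0.74), and of 25 mitosis genes 13 fell and 0 rose (median -0.81). On the TPM scale the medians were 0.71 and 0.79, close to the shift of 0.80 in all genes, and 1 gene of each list was called, as higher. Mcm6, a subunit of the replicative helicase, went from 74.9, 117 and 72.7 CPM to 34.9, 37.2 and 43.8 CPM, a log2 change of -1.19 ± 0.24 (adjusted p = 0.00085). Mcm5, another subunit, went from 25.8, 37.5 and 24.3 CPM to 12.7, 14.5 and 15.1 CPM (log2 change -1.06 ± 0.23, adjusted p = 0.00144). Pcna, the sliding clamp, went from 47.7, 67.2 and 44.5 CPM to 26.3, 30.6 and 29.1 CPM (log2 change -0.89 ± 0.18, adjusted p = 0.000978). Cone primed replicate 2 was the highest library for all 3 genes, and the groups did not overlap.

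Ube2c, a ubiquitin-conjugating enzyme of the anaphase-promoting complex, fell from 17.0, 28.3 and 14.5 CPM to 7.75, 7.05 and 8.25 CPM, a log2 change of -1.38 ± 0.28 (adjusted p = 0.000969). Cdc20, the activator of that complex, fell by 1.08 ± 0.29 (adjusted p = 0.00959, with 0.0881 without cone primed replicate 2 and 0.0516 without day 5 replicate 1). Mki67, which codes for the proliferation marker Ki-67, was at 519, 765 and 446 CPM and then at 331, 423 and 462 CPM. Its groups overlapped and the difference of -0.51 ± 0.29 missed the threshold (adjusted p = 0.220). Without cone primed replicate 2 the calls came down to 5 replication and 2 mitosis genes, all lower, with medians of -0.53 and -0.55. Without day 5 replicate 1 they came down to 8 and 3, and without day 5 replicate 2 to 7 mitosis genes.

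Against these falls, cyclin D2 (Ccnd2), which drives the start of the cycle, rose from 5.92, 9.46 and 2.41 CPM to 105, 85.9 and 88.9 CPM, a log2 change of 3.95 ± 0.38 (adjusted p = 6.51e-08). Cdkn2b, an inhibitor of the kinases that D cyclins activate, rose from 0.755, 0.728 and 0.419 CPM to 4.01, 2.37 and 3.95 CPM (log2 change 2.42 ± 0.40, adjusted p = 0.0001). Cyclin D1 (Ccnd1), the main D cyclin of retinal progenitors, was at 91.9, 130 and 75.7 CPM and then at 131, 124 and 140 CPM, with overlapping groups (adjusted p = 0.213). Over the 17 genes of G1 control and cell cycle exit, 3 were higher and 3 lower (35.3% called, against 22.3% of all genes tested). Without cone primed replicate 2 or day 5 replicate 1, 3 in all were called.

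Promoter letters differed between these lists. E2F sites, searched as TTTGGCGC, TTTCCCGC, TTTGGCGG and TTTCCCGG on both strands, were in 11 of 23 matched replication genes (47.8%) and 1 of 21 matched mitosis genes (4.76%), against 3.79% of 27025 genes. The cell cycle homology region (CHR), searched as TTTGAA, was in 16 of 21 mitosis genes (76.2%) and 4 of 23 replication genes (17.4%), against 20.2%. CCAAT was in 18 of 21 mitosis genes (85.7%) and 15 of 23 replication genes (65.2%), against 41.1%. Matches to different motifs were counted separately and may overlap. Genes of both lists that were not called also held matches, Mki67 with its CHR letters among them. The E2F letters of a replication gene and the CHR letters of 2 mitosis genes, all lower at day 5, are shown in capitals in the 150 bases before the start.
Mcm6, chr1:128359706-128359855, minus strand: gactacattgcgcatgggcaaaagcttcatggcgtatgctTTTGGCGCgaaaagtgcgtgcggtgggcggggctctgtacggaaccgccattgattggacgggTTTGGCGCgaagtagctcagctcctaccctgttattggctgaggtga
Ube2c, chr2:164769779-164769928, plus strand: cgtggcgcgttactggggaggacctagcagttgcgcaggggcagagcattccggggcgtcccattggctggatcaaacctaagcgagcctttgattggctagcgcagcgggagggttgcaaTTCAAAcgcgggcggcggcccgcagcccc
Cdc20, chr4:118437344-118437493, minus strand: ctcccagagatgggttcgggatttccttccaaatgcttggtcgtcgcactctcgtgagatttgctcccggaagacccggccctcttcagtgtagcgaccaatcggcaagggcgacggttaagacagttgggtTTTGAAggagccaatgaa

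Part of the ganglion cell genes fell. Of 20 ganglion cell genes 10 were lower and 0 higher (median -1.37), and on the TPM scale the median was -0.25 with 1 gene called, as higher. Pou4f1, a POU factor of ganglion cells, was at 33.6, 89.7 and 37.3 CPM and then at 20.9, 13.0 and 15.1 CPM, a log2 change of -1.72 ± 0.47 (adjusted p = 0.00911), but its adjusted p was 0.135 without cone primed replicate 2 and 0.0557 without day 5 replicate 2. Pou4f2, the earlier factor of the same family, was at 5.92, 23.6 and 6.39 CPM and then at 5.81, 2.55 and 2.96 CPM (adjusted p = 0.0722). Stmn2, a tubulin regulator of growing axons, fell from 116, 231 and 131 CPM to 62.8, 48.2 and 52.4 CPM, a log2 change of -1.55 ± 0.34 (adjusted p = 0.00159). Cone primed replicate 2 was the highest library for all 3 genes. Without it 4 ganglion cell genes were called, all lower, with a median of -0.86, and without day 5 replicate 2 there were 5.

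Amacrine and horizontal cell genes moved both ways, with 2 of 20 higher, 3 lower, 15 not called and a median of -0.45. The share called (25.0%) was near that of all genes tested (22.3%). Slc6a9, the glycine transporter, rose by 1.16 ± 0.21 (adjusted p = 0.000248) and Prox1, a homeobox factor of horizontal cells, by 0.54 ± 0.15 (adjusted p = 0.00908), and the genes called lower were Lhx1, Onecut1 and Onecut2. The list held 3 called genes without any 1 cone primed library and 2 without day 5 replicate 2. Outside the lists, several of the largest falls were low-level genes of neurons. Ebf2, a helix-loop-helix factor of neurons, went from 3.78, 6.39 and 3.35 CPM to 0.468, 0.182 and 0.756 CPM (log2 change -3.24 ± 0.74, adjusted p = 0.00248). Onecut3, of a family used by horizontal and ganglion cells, went from 5.54, 7.84 and 5.97 CPM to 0.869, 1.16 and 0.174 CPM (log2 change -3.13 ± 0.56, adjusted p = 0.000235). Dlx2, a homeobox factor of ganglion and amacrine cells, changed by -2.96 ± 0.81 (adjusted p = 0.00961, with 0.0509 without cone primed replicate 2 and 0.0609 without day 5 replicate 2). Further genes among the 10 largest falls were Csrp3 (-4.77 ± 0.91), a LIM protein of muscle, Ccer2 (-4.20 ± 0.88), Rbp4 (-3.40 ± 0.67), the retinol carrier of plasma, and Npr1 (-2.80 ± 0.56), a natriuretic peptide receptor, with adjusted p of 0.000603, 0.00153, 0.000764 and 0.000787.

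Bipolar cell genes moved both ways. In the list 2 of 15 were higher and 2 lower, and the share called (26.7%) was near that of all genes tested (22.3%). Grm6, the glutamate receptor of ON bipolar cells, had 0 reads at day 0 and 5.35, 3.65 and 2.38 CPM at day 5, which is at least 12.2-fold higher against a floor of 3 reads per library (adjusted p = 0.00664). Vsx1, a homeobox factor of cone bipolar cells, had 0 reads and then 2.47, 1.58 and 1.69 CPM, at least 6.14-fold higher (adjusted p = 0.0223, with 0.0871 without cone primed replicate 2 and 0.0634 without replicate 3). Without cone primed replicate 2 or 3 or day 5 replicate 2 the bipolar list held 2 called genes.

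Glial genes rose. Of 15 Muller glia genes 11 were higher and 0 lower (median 1.40), and of 10 astrocyte genes 7 were higher and 0 lower (median 3.63, or 3.49 with genes at 0 in one group set to their bound). Rlbp1, the retinaldehyde-binding protein of Muller glia, rose from 22.8, 11.2 and 18.2 CPM to 97.5, 74.1 and 70.9 CPM, a log2 change of 2.23 ± 0.36 (adjusted p = 7.65e-05). Glul, glutamine synthetase, was at 137, 179 and 127 CPM and then at 148, 146 and 121 CPM, with overlapping groups (adjusted p = 0.749). Gfap, the glial intermediate filament, gave 3 reads at day 0 and 213 at day 5, a ratio of 43.6 with an exact 95% interval of 14.7 to 213.

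**Figure D3:**
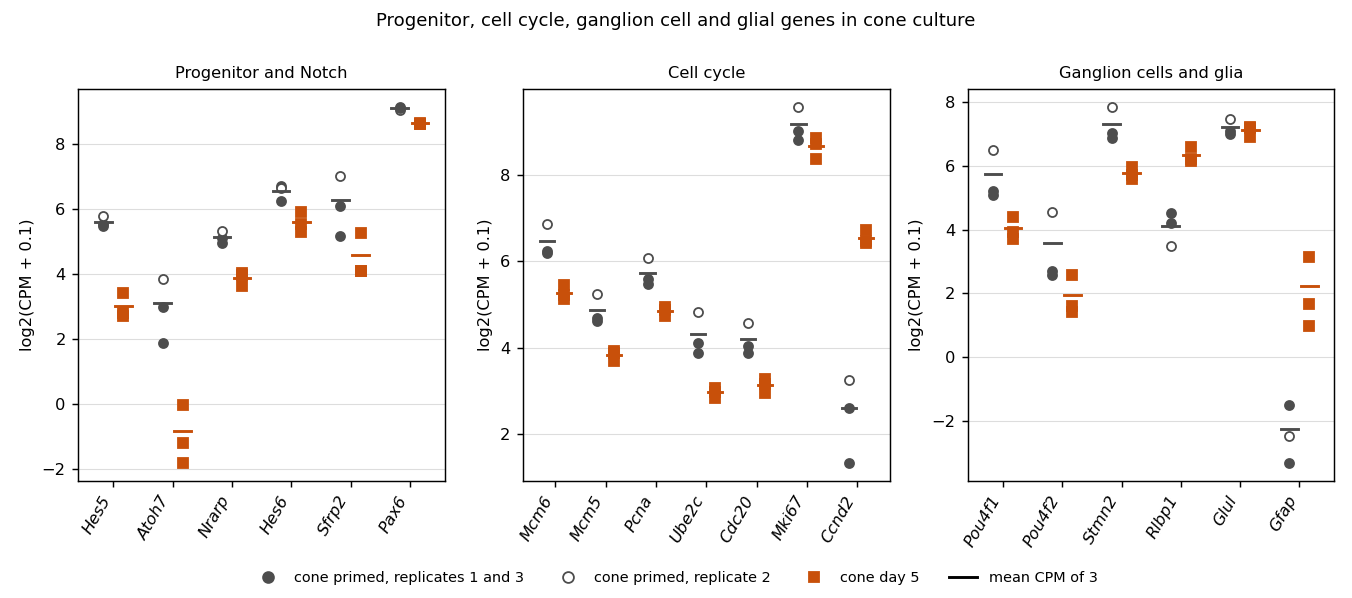
Levels as log2(CPM + 0.1) in each cone primed library (circles, replicate 2 open) and each cone day 5 library (squares), with bars at the mean of 3, for progenitor and Notch genes, cell cycle genes, and ganglion cell and glial genes. Hes5, Mcm6 and Stmn2 lie lower at day 5 without overlap, Ccnd2, Rlbp1 and Gfap lie higher, and Mki67 and Glul overlap.

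Some contractile and matrix genes rose, the contractile ones from near 0. In the list of pericyte and smooth muscle genes 5 of 9 tested were higher (median 2.97, or 1.56 with genes at 0 set to their bound). In the mesenchyme and matrix list 6 of 15 were higher (median 1.09), with 0 lower in either list. The shares called higher were 55.6% and 40.0%, against 12.2% of all genes tested. The 10 pericyte genes summed to 2.67 to 3.78 CPM at day 0 and 54.1 to 98.6 CPM at day 5, and the 16 mesenchyme genes to 211 to 291 CPM and 506 to 644 CPM. Acta2, smooth muscle actin, was at 0, 0.162 and 0.314 CPM at day 0 and at 59.3, 33.7 and 48.0 CPM at day 5, a log2 change of 8.05 ± 0.83 (adjusted p = 1.65e-07). Tagln, transgelin of the same filaments, rose from 0.252, 0.323 and 0.733 CPM to 26.3, 15.9 and 19.9 CPM (log2 change 5.54 ± 0.76, adjusted p = 1.09e-05). Col1a1, type I collagen, rose from 1.51, 1.21 and 0.733 CPM to 27.4, 17.0 and 53.1 CPM (log2 change 4.82 ± 0.76, adjusted p = 5.84e-05). All day 5 libraries were above all primed libraries for these genes.

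Other genes of this kind rested on very few reads at day 0. Twist1, a mesenchymal factor, gave 2 reads and then 227 (ratio 69.7, exact 95% interval 19.1 to 579). Col8a1, a collagen of basement membranes, gave 2 and then 941 (ratio 289, interval 79.8 to 2389), Fbln5, an elastic fibre protein, 1 and then 232 (ratio 143, interval 25.3 to 5652), and Anxa3, an annexin, 1 and then 322 (ratio 198, interval 35.2 to 7835). Lum and Dcn, proteoglycans that define many fibroblasts, stood at 1 and 0 reads at day 0 and at 1 and 0 reads at day 5. The 18 microglia and macrophage genes summed to 2.52 to 6.79 CPM at day 0 and 15.3 to 27.1 CPM at day 5. Of 16 tested 3 were called higher (18.8%, against 12.2% of all genes tested), and 0 without cone primed replicate 2. The number was 1 without cone primed replicate 1 or 3 or day 5 replicate 1. Endothelial genes gave 1 higher of 6 tested (16.7%, near the 12.2% of all genes tested), with 2 called without day 5 replicate 1. The gene was Flt1 (log2 change 3.27 ± 0.65, adjusted p = 0.000726). The 10 endothelial genes summed to 331 to 368 CPM at day 0 and 288 to 334 CPM at day 5. Nearly all of it was Kdr, with 10337 reads at day 0 and 14415 at day 5. These are raw reads, and the day 5 libraries were deeper, so they do not show a rise. The defining genes Cldn5 and Cdh5 gave 21 and 1 raw reads at day 0 and 6 and 0 at day 5. The 10 erythroid genes found summed to at most 0.419 CPM in any of the 6 libraries. The part of such cells in these results was not tested.

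Targets of TGF-beta rose. Of 11 tested 10 were higher and 0 lower (median 3.54). Cyr61, also a target of the YAP pathway, rose from 0.252, 0.162 and 0.314 CPM to 30.7, 21.2 and 22.6 CPM, a log2 change of 6.66 ± 0.50 (adjusted p = 1.32e-09). Ctgf, connective tissue growth factor, rose from 0.503, 0.243 and 1.36 CPM to 30.1, 23.5 and 26.7 CPM (log2 change 5.29 ± 0.53, adjusted p = 9.52e-08). Thbs1, thrombospondin, rose from 1.38, 1.86 and 0.838 CPM to 86.9, 48.5 and 77.9 CPM (log2 change 5.66 ± 0.54, adjusted p = 3.89e-08). None of these groups overlapped, and the list held 10 called genes without cone primed replicate 2.

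BMP responses were smaller. Of 11 tested 4 were higher (36.4%, against 12.2% of all genes tested) and 0 lower (median 1.14, or 0.88 with bounds). Id1, a direct BMP target, rose from 2.90, 3.88 and 1.99 CPM to 11.2, 6.57 and 6.22 CPM (log2 change 1.43 ± 0.33, adjusted p = 0.00254). Smad6, a feedback inhibitor of the pathway, gave 6 reads at day 0 and 80 at day 5 (log2 change 2.97 ± 0.47, adjusted p = 5.95e-05). Id3, of the same family as Id1, was at 15.6, 24.8 and 9.74 CPM and then at 20.9, 13.6 and 19.0 CPM (adjusted p = 0.893). Dand5, the mouse gene for COCO, was at 6.80, 3.64 and 4.40 CPM and then at 5.08, 6.26 and 5.12 CPM (adjusted p = 0.711). Its RNA does not measure protein added to the medium.

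Immediate early genes, which respond within minutes to stimulation, were higher in 8 of 15 and lower in 2 (median 1.18). Egr1, a zinc finger factor, rose from 21.0, 18.7 and 23.9 CPM to 99.8, 106 and 97.8 CPM, a log2 change of 2.26 ± 0.21 (adjusted p = 2.41e-08). Fos, a subunit of AP-1, rose from 5.79, 9.46 and 19.3 CPM to 46.6, 38.1 and 34.9 CPM (log2 change 1.79 ± 0.40, adjusted p = 0.00206). The groups overlapped for neither gene.

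Metabolic genes moved in opposite directions by pathway. Of 16 glycolysis genes 10 were higher and 0 lower (median 0.85), and of 12 hypoxia targets 10 were higher and 0 lower (median 1.56). Hk2, the hexokinase of fast glycolysis, rose from 4.53, 3.56 and 2.41 CPM to 33.1, 26.9 and 22.3 CPM, a log2 change of 2.98 ± 0.30 (adjusted p = 9.52e-08). Ldha, lactate dehydrogenase, rose from 203, 103 and 144 CPM to 418, 373 and 335 CPM (log2 change 1.33 ± 0.34, adjusted p = 0.00541). Eno1, enolase, rose from 229, 224 and 185 CPM to 757, 627 and 538 CPM (log2 change 1.59 ± 0.18, adjusted p = 1.04e-06). The groups did not overlap for these 3 enzymes. Gapdh was at 38.0, 39.2 and 36.8 CPM and then at 49.0, 40.3 and 35.5 CPM (adjusted p = 0.599), and its count is uncertain because of its many processed copies.

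Among the hypoxia targets, Pdk1, the kinase that shuts pyruvate out of mitochondria, rose from 11.1, 11.4 and 7.54 CPM to 48.4, 34.3 and 43.5 CPM (log2 change 2.07 ± 0.31, adjusted p = 3.09e-05). Egln3, an oxygen-sensing prolyl hydroxylase, changed by 3.64 ± 0.70 (adjusted p = 0.000514), and adrenomedullin (Adm) by 3.67 ± 0.47 (adjusted p = 4.35e-06). P4ha1, a collagen prolyl hydroxylase, rose from 29.0, 20.1 and 21.9 CPM to 88.7, 67.4 and 65.6 CPM (log2 change 1.65 ± 0.17, adjusted p = 1.58e-07). The oxygen level of the cultures is not given in the labels.

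Cholesterol genes fell in 13 of 22 and rose in 1 (median -0.52). On the TPM scale none was called and the median was 0.28, below the shift of all genes, with Hmgcs1 at 0.23. Hmgcs1, the synthase at the entry of the pathway, went from 213, 281 and 215 CPM to 144, 98.3 and 95.9 CPM, a log2 change of -1.07 ± 0.17 (adjusted p = 5.38e-05). Idi1, isopentenyl diphosphate isomerase, went from 29.8, 33.6 and 32.8 CPM to 15.4, 13.0 and 14.8 CPM (log2 change -1.16 ± 0.18, adjusted p = 5.49e-05). The groups did not overlap for either. The SREBP letters TCACNCCAC were in 1 of 14 matched cholesterol genes (7.14%) against 1.44% of 27025 genes, and the gene was Hmgcs1, shown with the match in capitals.
Hmgcs1, chr13:119690201-119690350, plus strand: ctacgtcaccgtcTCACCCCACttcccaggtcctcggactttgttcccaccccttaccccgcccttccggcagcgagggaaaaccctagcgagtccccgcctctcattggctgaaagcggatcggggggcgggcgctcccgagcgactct

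Retinoic acid genes were higher in 5 of 13 and lower in 2 (53.8% called, against 22.3% of all genes tested), with a median of 0.30. Rarb, a receptor gene that is itself a target of retinoic acid, rose from 0.252, 0.647 and 0.943 CPM to 4.94, 5.84 and 6.63 CPM, a log2 change of 3.18 ± 0.35 (adjusted p = 4.40e-07). Dhrs3, a retinaldehyde reductase that the acid induces, rose from 0.126, 0.243 and 0.419 CPM to 7.35, 17.9 and 5.87 CPM (log2 change 5.22 ± 0.54, adjusted p = 1.83e-07). Neither overlapped between the groups. Without cone primed replicate 3 or day 5 replicate 2 the list held 4 called genes.

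Whether these changes differed from those of the rod culture was tested by the difference of the log2 changes, with rod day 5 set against rod primed libraries. Of 18150 genes 102 (0.562%) differed, 78 with the higher change in cone culture (0.43%) and 24 with the lower (0.132%). In the rod culture itself 3185 genes were called (17.5%), 1590 higher (8.76%) and 1595 lower (8.79%). Of the 102 genes, 53 were called in cone culture alone, 22 in rod culture alone, 17 in both with the same direction and 10 in both with opposite directions. Fewer genes differed without cone primed replicate 2 (67) or 3 (47), day 5 replicate 1 (41), rod primed replicate 1 (55) or 2 (51), or rod day 5 replicate 1 (61), 2 (50) or 3 (52). The calls named next were kept without any 1 of the 12 libraries unless stated.

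Hk2 went from a mean of 3.50 to 27.4 CPM in cone culture and from 3.49 to 2.73 CPM in rod culture (difference 3.34 ± 0.44, adjusted p = 0.000201). H2-K1, a class I histocompatibility gene, went from a mean of 0.707 to 5.96 CPM in cone culture and from 2.75 to 1.46 CPM in rod culture (difference 3.91 ± 0.52, adjusted p = 0.000201). Cckbr, a cholecystokinin receptor, went from 0.123 to 4.22 CPM and from 1.78 to 0.967 CPM (difference 5.73 ± 1.09, adjusted p = 0.00884). In these 3 genes the means moved in opposite directions, which alone does not show a fall in rod culture. The rod fall of H2-K1 did not pass the test, and the log2 change of Hk2 in rod culture lay near 0. No rod test is given here for Hk2 or Cckbr.

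For a second set the rod primed cells already stood high at day 0. Rarb was at a mean of 97.3 CPM in rod primed and 96.1 CPM in rod day 5 cells (difference of the changes 3.20 ± 0.41, adjusted p = 0.000201), and Dhrs3 at 50.9 and 113 CPM (4.07 ± 0.67, adjusted p = 0.00240). Atoh8, a helix-loop-helix factor, was at 1.01 CPM in cone primed and 7.20 CPM in cone day 5 cells, and at 56.7 and 69.3 CPM in the rod groups (2.47 ± 0.44, adjusted p = 0.00514). Pmepa1, an inhibitor of TGF-beta signalling, was at 34.5 and 86.3 CPM in the cone groups and at 301 and 267 CPM in the rod groups (1.49 ± 0.22, adjusted p = 0.000759). Pdlim3, an actin-binding protein, was at 0.734 and 35.3 CPM against 53.85 and 53.02 CPM (5.64 ± 0.63, adjusted p = 3.45e-05), and Cav1, caveolin, at 0.0539 and 4.53 CPM against 2.87 and 3.68 CPM (5.57 ± 0.90, adjusted p = 0.00226). On the TPM scale the differences of Dhrs3 and Atoh8 had the other sign, -0.66 and -0.42. At day 5 the cone means of Rarb, Dhrs3, Atoh8, Pmepa1 and Pdlim3 remained below the rod means.

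Dclk1, a microtubule-associated kinase, went from a mean of 106 to 70.1 CPM in cone culture and from 83.5 to 140 CPM in rod culture (difference -1.35 ± 0.25, adjusted p = 0.00610). Gfra1, a receptor subunit for glial-derived neurotrophic factor, went from 41.5 to 21.1 CPM and from 36.8 to 54.4 CPM (difference -1.54 ± 0.34, adjusted p = 0.0364), Podn, a matrix proteoglycan, from 18.2 to 3.53 CPM and from 2.15 to 2.83 CPM (difference -2.78 ± 0.62, adjusted p = 0.0369), and Cpne8, a copine, from 30.7 to 22.5 CPM and from 10.5 to 25.3 CPM (difference -1.71 ± 0.36, adjusted p = 0.0224). The calls of Gfra1, Podn and Cpne8 were kept without 4, 3 and 5 of the 12 libraries, and the highest adjusted p among the rest was 0.116, 0.109 and 0.0750.

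Cholesterol genes had fallen less in cone culture where they differed: Insig1 changed by -0.73 in cone and -1.46 in rod culture (difference 0.74 ± 0.17), Lss by -0.38 and -1.19 (0.81 ± 0.19) and Msmo1 by -0.70 and -1.55 (0.85 ± 0.19), with adjusted p of 0.0471, 0.0471 and 0.0369. The fall of Lss within cone culture was itself lost without any 1 cone primed library or without day 5 replicate 2 or 3 (adjusted p from 0.0711 to 0.276). Further list members with a higher change in cone culture were Thbs1 (3.68 ± 0.79, adjusted p = 0.0305), Ccnd2 (2.42 ± 0.49, adjusted p = 0.0169), Ccnd1 (1.41 ± 0.32, adjusted p = 0.0437), Pdk1 (1.86 ± 0.43, adjusted p = 0.0438), Pgk1 (1.17 ± 0.24, adjusted p = 0.0215) and P4ha1 (0.99 ± 0.23, adjusted p = 0.0471). Outside the lists Prrx1, a homeobox factor of mesenchyme, stood at 4.72 ± 1.12 (adjusted p = 0.0471). Each of these 10 calls was lost in some of the 12 fits that left out 1 library. The number of such fits was 3 for Ccnd2, 5 for Pgk1, 6 for Thbs1 and 8 for Ccnd1 and Insig1. It was 9 for Msmo1, P4ha1 and Prrx1 and 10 for Lss and Pdk1. The highest adjusted p was 0.409 for Prrx1 and between 0.0601 (Ccnd2) and 0.153 (P4ha1) for the others.

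No gene of the 4 photoreceptor lists was among the 102. In rod culture 2 of the 12 rod phototransduction genes were called higher with a median of 1.50, but the difference from cone culture was 2.63 for Gnat1 (adjusted p = 0.817), 2.70 for Rcvrn (adjusted p = 0.596) and 3.12 for Nr2e3 (adjusted p = 0.617). For Opn1sw the log2 change was 2.24 in cone and -2.20 in rod culture, and the difference of 4.45 missed the threshold (adjusted p = 0.142). At the later days of cone culture the mean of Gnat1 was 20.1 CPM at day 12, 22.7 CPM at day 21 and 2.45 CPM at day 35, and that of Opn1sw was 0.763, 0.0684 and 0 CPM. Acta2 was at 1042, 787 and 1193 CPM on the same days.

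**Figure D4:**
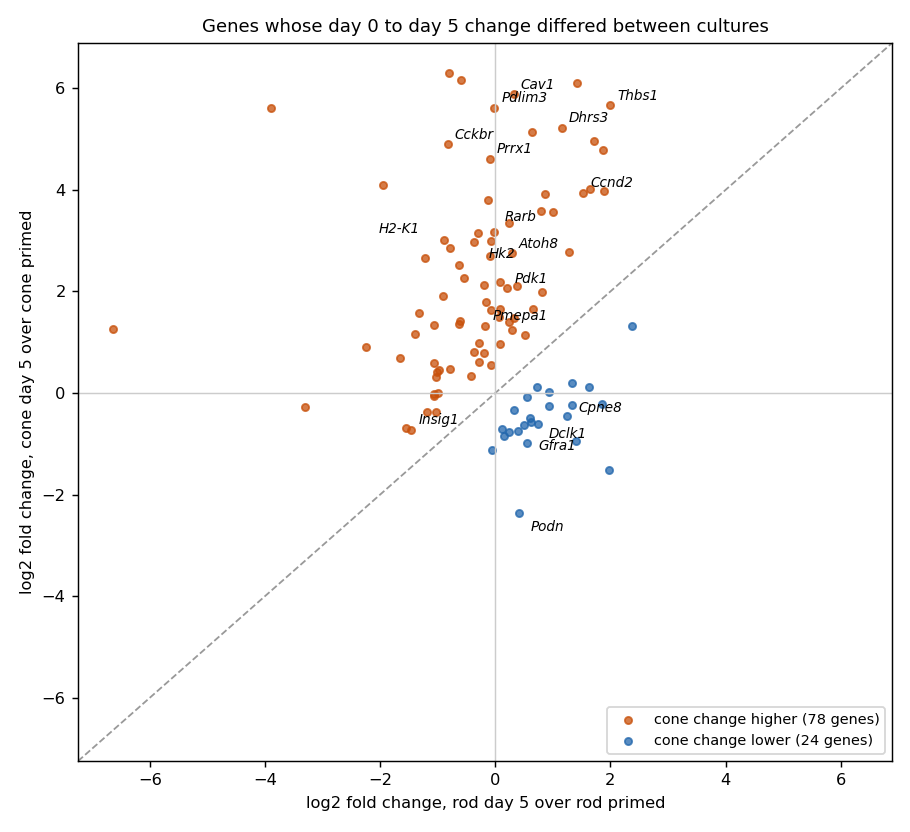
Log2 fold change from primed day 0 to day 5 in cone culture (vertical) against rod culture (horizontal) for the 102 genes whose change differed between the cultures, with the dashed line marking equal change. The 78 orange points lie above the line and the 24 blue points below it, and Hk2 and Pdlim3 lie near 0 for the rod culture.

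**Figure D5:**
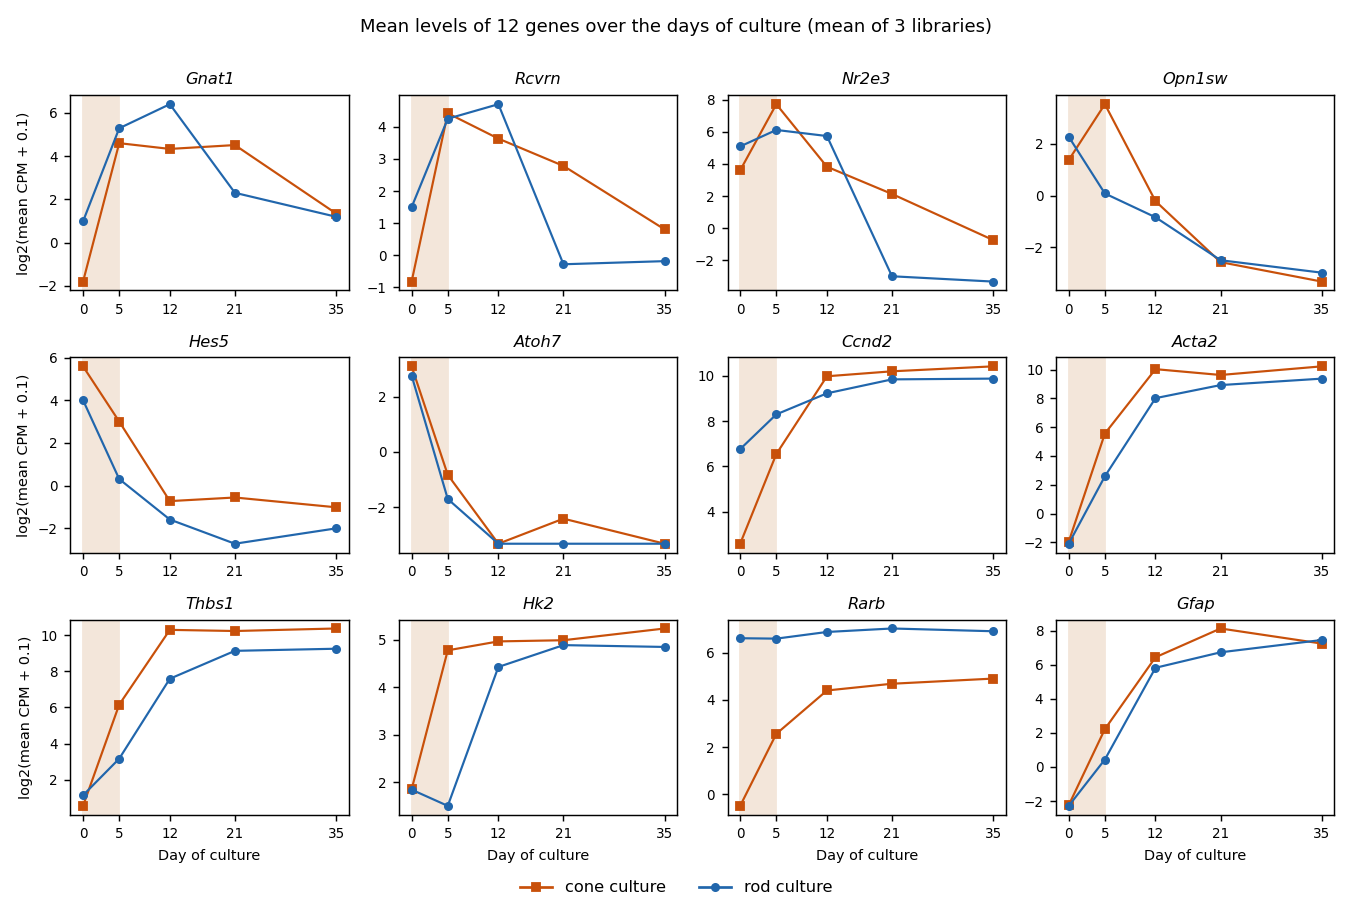
Mean level of 12 genes as log2(mean CPM + 0.1) by day in cone culture (squares) and rod culture (circles), 3 libraries a point, with days 0 to 5 shaded and primed cells at day 0. In cone culture the means of Gnat1, Rcvrn, Nr2e3 and Opn1sw are highest at day 5, and those of Hes5 and Atoh7 at day 0. The means of Ccnd2, Acta2 and Thbs1 are higher at day 12 than at day 5. The Gnat1 mean is highest at day 5 only through day 5 replicate 2, and differences from later days were not tested.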

How the data were processed

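RNA was sequenced from 33 libraries. The 6 of the cone comparison are set beside 6 of rod culture and 3 untreated, and all 33 entered the filter, the scaling and the fit. Libraries of later days otherwise gave means only. The authors deposited raw counts per gene for each library, and a TPM table per library. HISAT2, StringTie, HTSeq and the build GRCm38 are named in the submitters' processing notes, and the strand setting is not given in the sources used here. Rows that name no gene held 67.1% to 72.2% of counted reads in the 6 libraries and were left out.

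Counts were tested with edgeR 4.0.16 (R 4.3.3, TMM scaling, filterByExpr at a minimum count of 10, quasi-likelihood test, Benjamini-Hochberg over 18150 genes, adjusted p under 0.05), fitted over all 33 libraries. limma 3.58.1 tested log2(TPM + 1), and DESeq2 1.42.0 was an alternative. Tables and figures used Python 3.11.15. In simulated data with 17531 genes, 98 were changed 2-fold and 99 were changed 4-fold, in cone day 5 alone. The cone comparison recovered 45.9% of 2-fold and 73.7% of 4-fold changes with 5 false calls, and the comparison of cultures 30.6% and 63.6% with 7. In the data 22.3% of genes were called in the cone comparison, so these shares do not measure its recovery. A floor of 3 counts was 0.243 to 0.378 CPM at day 0 and 0.174 to 0.200 CPM at day 5, and floors and intervals cover counting error only, as the labels mention no molecular identifiers. Some genes of the lists are not reported here by name. Members and lists were chosen with earlier results of these data known. Named genes were the 10 largest non-overlapping changes each way, up to 4 called and 2 uncalled members per list, 13 fixed genes and, each way, the 4 largest differences between cultures among genes whose cone libraries do not overlap between days, with the largest changes and differences limited to an average log2 CPM of at least 1. Ccnd1, Cdc20, Cdh5, Cldn5, Cngb1, Ctgf, Dcn, Fos, Gapdh, Glul, Hes1, Hes6, Insig1, Lss, Lum, Msmo1, Notch2, Notch3, Opn1mw, P4ha1, Pax6, Pcna, Pde6b, Pde6c, Pgk1, Pmepa1, Pou4f2, Prox1, Rlbp1, Sag, Samd7 and Stmn2 were named after their values were seen.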

Additional observations from a re-analysis of the deposited data

Results flagged for a closer look

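The change from primed day 0 to day 5 differed between cone and rod culture for 102 genes by the edgeR test of the difference itself. The difference of log2 changes, cone minus rod, was 5.73 for Cckbr, 5.64 for Pdlim3, 5.57 for Cav1, 4.72 for Prrx1, 4.07 for Dhrs3, 3.91 for H2-K1, 3.68 for Thbs1, 3.34 for Hk2 and 3.20 for Rarb. It was 2.47 for Atoh8, 2.42 for Ccnd2, 1.86 for Pdk1, 1.49 for Pmepa1, 1.41 for Ccnd1, 1.17 for Pgk1 and 0.99 for P4ha1. For the cholesterol genes it was 0.85 (Msmo1), 0.81 (Lss) and 0.74 (Insig1). It was negative for Podn (-2.78), Cpne8 (-1.71), Gfra1 (-1.54) and Dclk1 (-1.35). Of these 23 named genes, 10 kept their call without any 1 of the 12 libraries.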

How the results depend on the processing

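For the cone comparison, 9 alternatives on the counts gave 3325 to 5879 genes around the 4056 reported. On log2(TPM + 1) there were 1713, and without 1 library 2419 to 3725, the lowest without cone primed replicate 2. Some named genes reported as not called depend on the fit. Of them, 7 were called with the compared libraries alone and 6 with voom and quality weights. In the same fits 1 and 6 calls of named genes were lost, counted over both comparisons. The comparison of cultures was less stable: 102 genes became 295 with DESeq2, 295 with the compared libraries alone, 387 with voom and quality weights, and 0 with limma on log2(TPM + 1), where 544 had an unadjusted p under 0.05. Without 1 library it gave 41 to 87. On the TPM scale the change took the other sign for Pax6 (0.90), Nrarp (0.57), Gfra1 (0.30), Hmgcs1 (0.23), Hes6 (0.21) and Insig1 (0.11). Of these, only Pax6 lay above the median change of all genes on that scale, 0.80. The difference between cultures took the other sign for Dhrs3 (-0.66), Atoh8 (-0.42) and Ccnd1 (-0.0619). The cause was not tested. Same-numbered cone libraries did not deviate together (r = -0.0805, -0.14 and -0.00479), so the numbers are not read as pairs. With a replicate block 4101 and 113 genes were called, and with the replicate block in the compared libraries alone 3394 and 166. Low depth at day 0 limits genes near 3 reads per library.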
